A study of Homo sapiens with 7 samples.

Results

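The mRNAs of 9 enzymes that make or interconvert the coenzymes NAD, NADP and NADPH were followed on 7 expression arrays. The genes were chosen by name from the known roles of their products, with earlier results of these arrays known but no measured value in the rule: NADK, NADK2, PGD, IDH1, IDH2, ME1, NNT, NAMPT and NMNAT1. They are 9 of the 19062 genes that could be named on the array, and 13 of its 42405 gene probes read them. All 13 probes were above background on all 7 arrays, so no member was lost to the filter on dim probes, and none was saturated.

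NAD carries electrons in the breakdown of nutrients and is also used up by enzymes such as the sirtuins. Its phosphorylated form NADP is reduced to NADPH, which supplies electrons for lipid synthesis and for the glutathione and thioredoxin systems that remove peroxides. In lung squamous carcinoma the NRF2 pathway, which drives several NADPH-producing genes, is often active. Nocturnin (NOC, gene symbol NOCT) is of interest here because it was classed as a deadenylase, that is, as an mRNA poly(A) tail shortening enzyme, and was later found to remove a phosphate from NADP and NADPH.

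The cells were NCI-H520, an established human line from a squamous cell carcinoma of the lung. The study asked which transcripts change when a deadenylase is silenced. Cells received 6 µg of pLKO.1 plasmid by liposomes, puromycin at 6 µg/mL followed at 12 h, and total RNA was taken at 72 h. There was 1 array for each of 7 plasmids: the empty vector, a non-target shRNA, and shRNAs against PARN, CNOT6, CNOT6L, CNOT7 and NOC. The controls therefore also carried a plasmid and puromycin selection, and the wild-type cells of the study were not analysed here. Each gene was targeted by 1 plasmid as far as the labels say, and for CNOT6L they cite the same target transcript as for NOC, so what that plasmid targets is uncertain.

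All arrays lay on 1 slide. Slide row 1 held the empty-vector, non-target, PARN and CNOT6 arrays, and slide row 2 the CNOT6L, CNOT7 and NOC arrays, so for these 3 shRNAs the row and the silencing cannot be told apart from the comparison with the controls. Image extraction of the NOC array took place on a different day from the other 6. Between 82.0% and 91.5% of probes were above background per array, and the 75th percentile of the signal, which sets the zero of the log2 levels below, ran from 1366 to 3986 intensity units. The mRNA of the targeted gene was lowest on its own array for PARN (45.8% of the control mean), CNOT6L (63.0%), CNOT7 (54.2%) and NOC (74.3%), and CNOT6 was not read here. NOCT was read by 1 spot, and the NOC array was 0.22 log2 below the non-target array, where the controls were 0.41 apart. Silencing at the mRNA level is thus uncertain for NOC and was not seen or excluded for CNOT6. Epithelial markers were above background on every array, 5 of 5, but only 3 of 7 squamous markers were, SOX2, KRT6A and PKP1. The basal markers TP63, KRT5, KRT14 and DSG3 were above background on 2, 4, 1 and 1 of the 7 arrays. Of markers of other cells, 3 of 3 leukocyte, 2 of 2 endothelial, 2 of 3 fibroblast and 3 of 4 lung adenocarcinoma genes were above background on all arrays. So were 16456 of the 19062 named genes, and these counts, with the epithelial one, therefore do not tell cell types apart. The part of such markers in the results below was not tested.

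No member differed at least 2-fold from both controls on any of the 5 shRNA arrays. The count was 0 of 9 for PARN, CNOT6, CNOT6L, CNOT7 and NOC shRNA, where 0.483%, 0.514%, 0.887%, 0.976% and 1.34% of all genes were called by the same rule, so 9 genes were too few for a count of 0 to stand apart. At 1.5-fold the count was again 0 of 9 on each of these arrays, where 1.74%, 3.34%, 4.24%, 4.4% and 5.07% of all genes were called. Relative to the mean of the controls the representative probes, 1 per gene, lay between -0.45 and 0.70 log2 in all 45 differences. With 1 array per group there is no replicate check, and in RNA of whole cultures fewer cells with a transcript and less of it per cell cannot be told apart. The control arrays were also less than 2-fold apart for all 9 genes (12.3% of all genes were called between them), and at 1.5-fold only NADK2 was called (22.9% of all genes). The span of the controls differed by gene, from 0.03 log2 for NADK to 0.64 for NADK2.

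**Figure D1:**
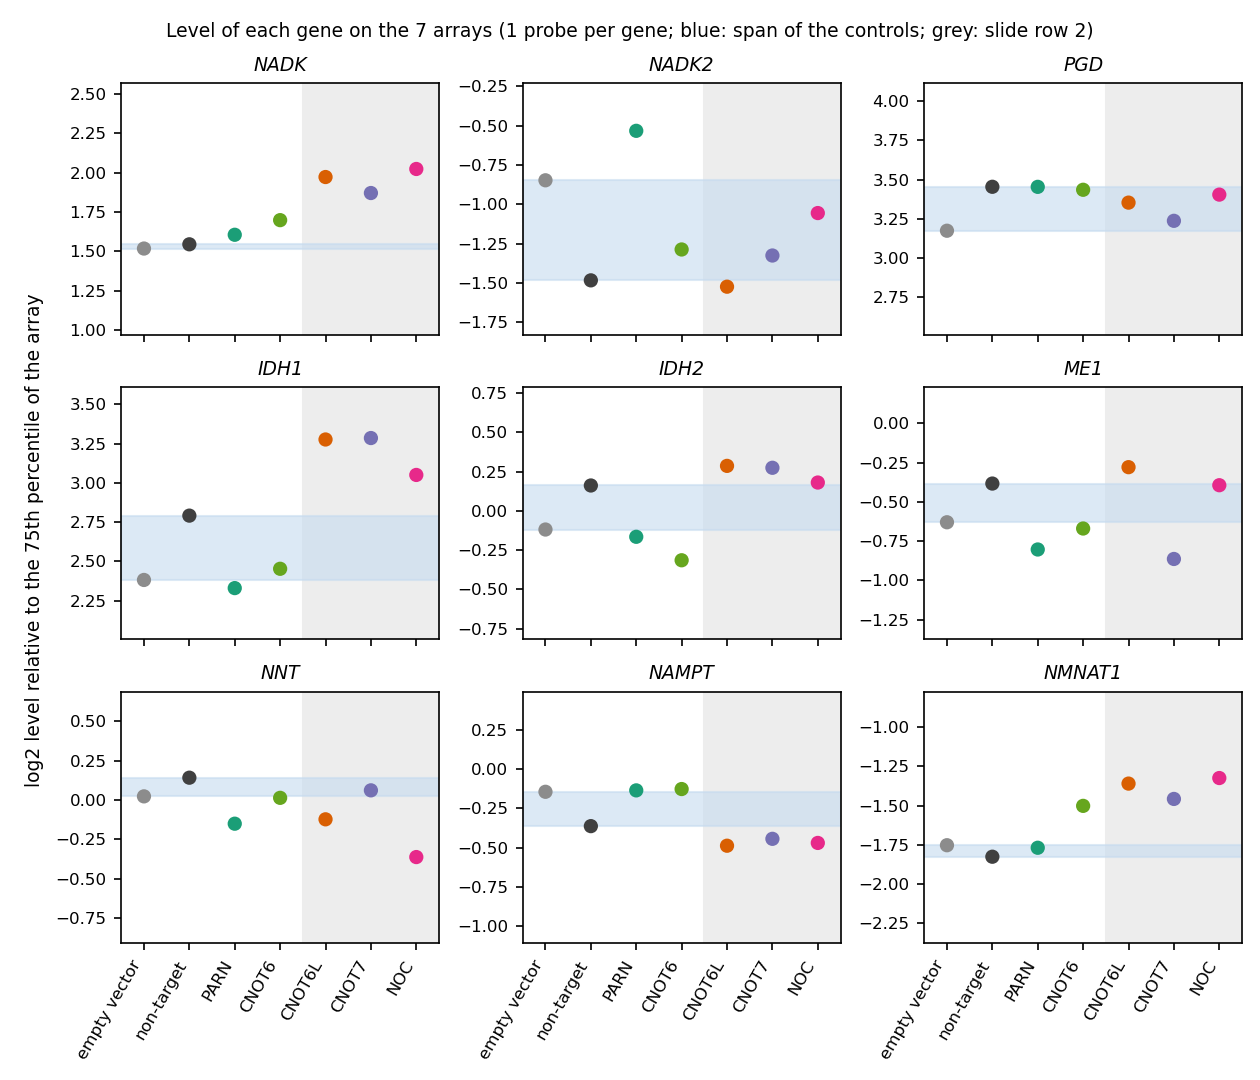
Log2 level of the representative probe of each gene (y axis, relative to the 75th percentile of the array) on the 7 arrays (x axis, 1 point per array); the blue band spans the empty-vector and non-target arrays and grey marks slide row 2. IDH1 and NADK lie above all row 1 arrays on the 3 grey arrays, while PGD spans 0.28 log2 over all 7.

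The producers of cytosolic NADPH differed in how they varied over the arrays. PGD, the 6-phosphogluconate dehydrogenase of the pentose phosphate pathway, was at 3.17 on the empty-vector array, 3.45 non-target, 3.45 PARN, 3.44 CNOT6, 3.35 CNOT6L, 3.24 CNOT7 and 3.40 NOC, in log2 units above the 75th percentile of each array. It was the steadiest member: its range of 0.28 was the width of the gap between the controls and sat at the 6.68th percentile of ranges over 16456 genes above background on all arrays. The SD between its 2 spots on an array was at most 0.06. IDH1, which oxidises isocitrate in the cytosol and peroxisome with NADP as the acceptor, was at 2.38, 2.79, 2.33, 2.45, 3.28, 3.29 and 3.05 in the same order of arrays. The CNOT6L, CNOT7 and NOC arrays were all above the other 4, at 161%, 162% and 138% of the control mean (a mean of log2 values), while the PARN and CNOT6 arrays were at 83.7% and 91.2%. Against the nearer control, the non-target array, these 3 arrays were 0.48, 0.49 and 0.26 log2 higher, and the controls themselves were 0.41 apart. ME1, the cytosolic malic enzyme, was at -0.63, -0.38, -0.80, -0.67, -0.28, -0.86 and -0.39. CNOT7 and PARN arrays were the lowest, at 78.1% and 81.4% of the control mean, and CNOT6L the highest at 117%. Within slide row 2, ME1 differed by 0.58 log2 between the CNOT6L and CNOT7 arrays, its full range, and the spots of its probe differed by an SD of at most 0.07.

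The mitochondrial enzymes did not move together. IDH2, the mitochondrial isocitrate dehydrogenase that uses NADP, was at -0.12, 0.16, -0.17, -0.31, 0.29, 0.27 and 0.18. The arrays of slide row 2 were above all of row 1, but only by 0.02 log2 over the non-target array. NNT, the transhydrogenase of the inner membrane that moves electrons from NADH to NADP, was at 0.02, 0.14, -0.15, 0.01, -0.12, 0.06 and -0.36. Its lowest array was NOC, at 73.4% of the control mean, 0.39 and 0.50 log2 below the controls and 0.24 and 0.42 below the CNOT6L and CNOT7 arrays. Its 2 spots differed by an SD of up to 0.20 on an array. NADK2, the mitochondrial NAD kinase, was at -0.85, -1.48, -0.53, -1.29, -1.52, -1.33 and -1.06. It had the widest range of the members, 0.99 log2, at the 79.8th percentile of all genes, and the PARN array was the highest at 155% of the control mean. The PARN array was 0.31 log2 above the empty-vector and 0.95 above the non-target array, and the other 4 shRNA arrays were below the empty-vector array. Of these, CNOT6L was also below the non-target array, by 0.04.

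NADK, the cytosolic kinase that makes NADP from NAD, was read by 3 probes that disagreed. The representative probe A_23_P200056, the one with the highest mean signal, was at 1.52, 1.54, 1.61, 1.70, 1.97, 1.87 and 2.02. Its controls were 0.03 log2 apart and all 5 shRNA arrays lay above both, with CNOT6L, CNOT7 and NOC at 136%, 127% and 141% of the control mean and PARN and CNOT6 at 105% and 112%. Probe A_24_P389994 was at -1.04, -0.69, -0.78, -0.85, -0.91, -0.96 and -0.76, and probe A_33_P3275330 at -0.52, -0.31, -0.16, -0.08, -0.42, -0.42 and -0.18. In the former all shRNA arrays lay between the controls, and in the latter the CNOT6, PARN and NOC arrays were above both controls while CNOT6L and CNOT7 lay between them. Each of the 3 probes was printed on 1 spot.

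The pathway that salvages nicotinamide starts with NAMPT, its rate-limiting enzyme, and NMNAT1 completes NAD in the nucleus. The representative NAMPT probe A_33_P3364864 was at -0.14, -0.36, -0.14, -0.13, -0.49, -0.44 and -0.47. The CNOT6L, CNOT7 and NOC arrays were the lowest, at 85.0%, 87.7% and 86.1% of the control mean, but only 0.12, 0.08 and 0.11 log2 under the non-target array. The other NAMPT probe, A_33_P3375934, was at -1.02, -0.94, -1.04, -0.89, -0.79, -0.96 and -0.73, so that the CNOT6L and NOC arrays were the highest and the probes went opposite ways there. NMNAT1 was at -1.75, -1.83, -1.77, -1.50, -1.36, -1.46 and -1.32 on its representative probe A_33_P3215193. The NOC, CNOT6L and CNOT7 arrays were the highest, at 138%, 135% and 126% of the control mean, and CNOT6 followed at 122%. On the second NMNAT1 probe, A_23_P201264, the levels were -2.41, -2.26, -2.56, -2.29, -2.14, -2.15 and -2.25. The arrays of slide row 2 were again above the other 4, here at 115%, 114% and 106% of the control mean, with the NOC array only 0.01 log2 over the non-target array.

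**Figure D2:**
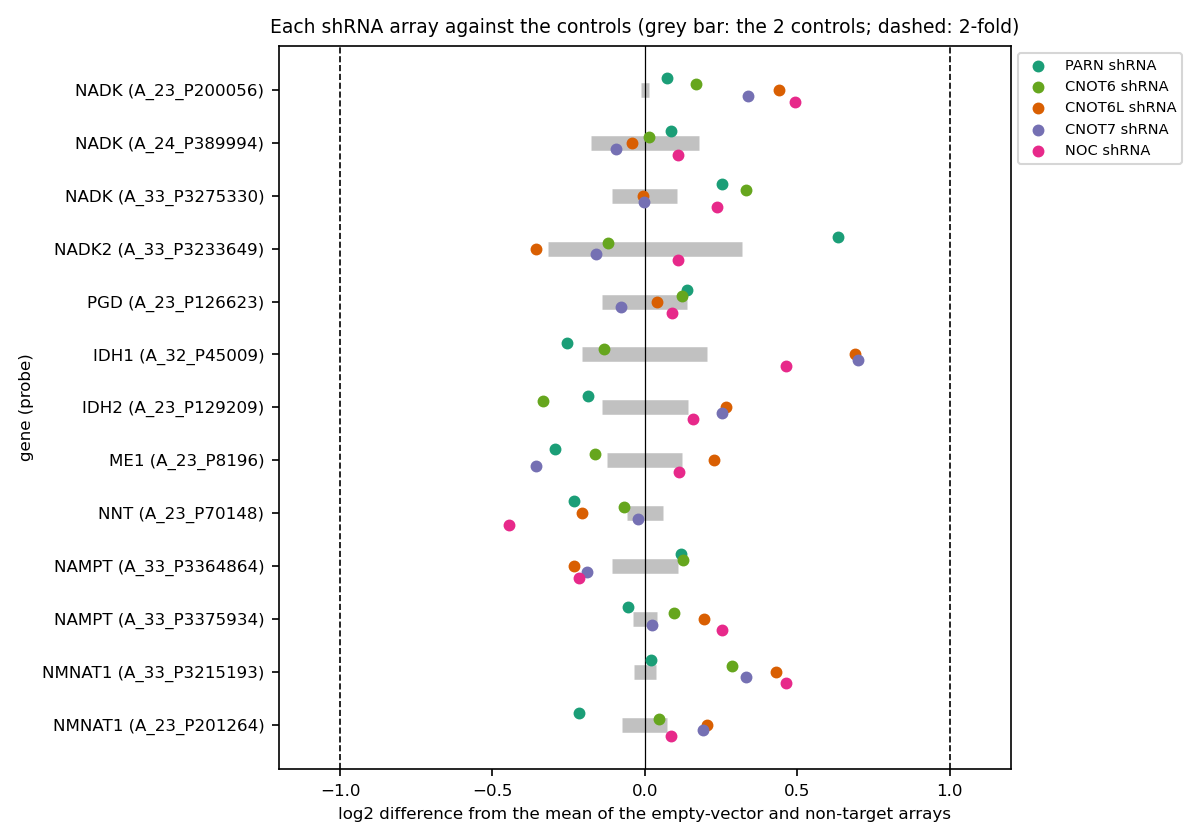
Log2 difference of each shRNA array (coloured points) from the mean of the empty-vector and non-target arrays (x axis) for all 13 probes (y axis); the grey bar spans the controls and the dashed lines mark 2-fold. No point reaches a dashed line, and the probes of NADK and of NAMPT differ in which arrays lie outside the grey bar.

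The NOC shRNA was of special interest, since nocturnin acts on NADP and NADPH. NOCT mRNA was low against its arrays, at -4.32, -4.74, -4.51, -4.47, -4.67, -4.89 and -4.96, and the NOC array was 0.64 and 0.22 log2 below the controls and 0.07 below the CNOT7 array. Relative to the control mean, 7 of the 9 genes were higher on the NOC array and 2 lower, NNT and NAMPT (the latter at 0.0035 without scaling), with a median of 0.11 log2 where the median of all genes above background was -0.02 and 47.0% of them were higher. Against each control alone the split was closer, with 6 of 9 genes above the empty vector and 5 of 9 above the non-target shRNA. On the CNOT6L, CNOT7, PARN and CNOT6 arrays 6, 4, 5 and 4 of the 9 were higher than the control mean. Their medians were 0.23, -0.02, 0.02 and -0.07 log2, so the CNOT6L median was larger than that of NOC. These counts rest on representative probes, and the second NAMPT probe was 0.25 log2 higher on the NOC array. Against both other arrays of slide row 2, which share the row of the NOC array but not its extraction day, 0 of 9 genes differed 2-fold (0.346% of all genes). For the CNOT6L and CNOT7 arrays the same comparison within the row also gave 0 of 9 (0.64% and 0.262% of all genes). Against the mean of its row mates the NOC array ran from -0.33 (NNT) to 0.37 (NADK2), and IDH1, the member highest against the controls on the CNOT6L and CNOT7 arrays, was 0.23 lower than their mean. The 5% and 95% points of all genes in that comparison were -0.36 and 0.30 log2.

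For the 5 shRNA arrays against the 2 controls, limma called 0 of 9 members and 0 of 38091 probes after Benjamini-Hochberg adjustment (0.0% of probes). At an unadjusted p under 0.05 it found 1428 probes, 3.75%, and none of the 13 member probes. The lowest member p in limma was 0.0583, for NADK, at 0.30 log2 (SE 0.14), with all 5 shRNA arrays higher. IDH1 stood at 0.29 (SE 0.28) and NMNAT1 at 0.31 (SE 0.16), and NNT, the lowest, at -0.19 (SE 0.15). With slide row as a term in limma, the shRNA difference came from the PARN and CNOT6 arrays alone, since row 2 held no control. In that fit IDH1 was at -0.19 (SE 0.16), NADK at 0.12 (SE 0.11) and NMNAT1 at 0.15 (SE 0.15). IDH2, the lowest there, was at -0.26 (SE 0.14), and again no member passed. Leaving out the empty vector, limma called 47 probes higher and 14 lower (3964 at an unadjusted p under 0.05), and leaving out the non-target shRNA, 1 lower. With the PARN, CNOT6L, CNOT7 or NOC array left out it called none, with 3677, 816, 829 and 651 probes at an unadjusted p under 0.05, and no member was called in any of these fits. The spread in this fit is that between different shRNAs and different control plasmids.

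The rows of the slide were compared after the levels had been seen. Between the 3 arrays of slide row 2 and the 4 of row 1, limma called IDH1 and NADK higher, 2 of 9 members, where 2.4% of all probes were called higher and 4.43% lower, 6.83% together. IDH1 was 0.71 log2 higher (SE 0.12, adjusted p = 0.0145), at 3.20 ± 0.13 in row 2 and 2.49 ± 0.21 in row 1 (SD, n = 3 and 4). The arrays of a row carry different plasmids and are not replicates, so the SD and SE here are between plasmids. The adjusted p-values belong to a comparison picked from the same levels, so they do not hold their nominal meaning. NADK was 0.36 higher on its representative probe (SE 0.08, adjusted p = 0.0367), at 1.96 ± 0.08 against 1.59 ± 0.08, but not on its other probes, which stood at -0.03 (SE 0.11) and -0.07 (SE 0.13). IDH2, at 0.36 (SE 0.12, adjusted p = 0.103), NMNAT1, at 0.33 (SE 0.11, adjusted p = 0.112), and NAMPT, at -0.27 (SE 0.10, adjusted p = 0.115), did not pass. Both calls were lost when row 2 was set against the controls alone (IDH1 0.62, adjusted p = 0.0973, NADK 0.42, adjusted p = 0.0905 in limma), in the series table (adjusted p = 0.0570 and 0.0798), without the CNOT6L array (IDH1 0.68, adjusted p = 0.0824, NADK 0.36, adjusted p = 0.147) and without the CNOT7 array (0.67, adjusted p = 0.0749, and 0.41, adjusted p = 0.0936). Calls over all probes fell as well, from 916 higher and 1687 lower with all arrays to 27 and 99 against the controls alone. There were none in the series table, 37 and 239 without CNOT6L and 111 and 329 without CNOT7. The fit follows the variance over the mean level of a probe, and the series table carries no level. Lost calls there are thus no check on IDH1 and NADK, which were at 0.77 and 0.42 log2 in that table. NADK was also lost without the empty-vector, PARN or NOC array, with adjusted p of 0.0874, 0.0959 and 0.145 in limma. In those fits 398, 167 and 75 probes were called higher and 947, 474 and 317 lower. Without the non-target array, IDH2 (0.45) and NAMPT (-0.33) passed as well, where 2189 probes were called higher and 5619 lower. Among the shRNA arrays only, IDH1 stayed higher in row 2, by 0.81 log2 (SE 0.11, adjusted p = 0.00937 in limma), IDH2 passed at 0.49 (SE 0.11, adjusted p = 0.0270), and NADK did not pass (adjusted p = 0.0818). That fit called 1439 probes higher and 3708 lower.

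On their representative probes, the levels of 5 members did not overlap between the rows: NADK, IDH1, IDH2 and NMNAT1 were higher on every array of row 2, and NAMPT lower on every one. Over 17804 genes, 12.4% were higher and 14.4% lower without overlap. The gap between the nearest arrays was 0.26 log2 for IDH1, 0.17 for NADK, 0.08 for NAMPT, 0.04 for NMNAT1 and 0.02 for IDH2. PGD, ME1, NNT and NADK2 overlapped. So did the other NADK probes and the second NAMPT probe, whose mean was higher in row 2, at -0.83 against -0.97, while the second NMNAT1 probe did not overlap either.

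**Figure D3:**
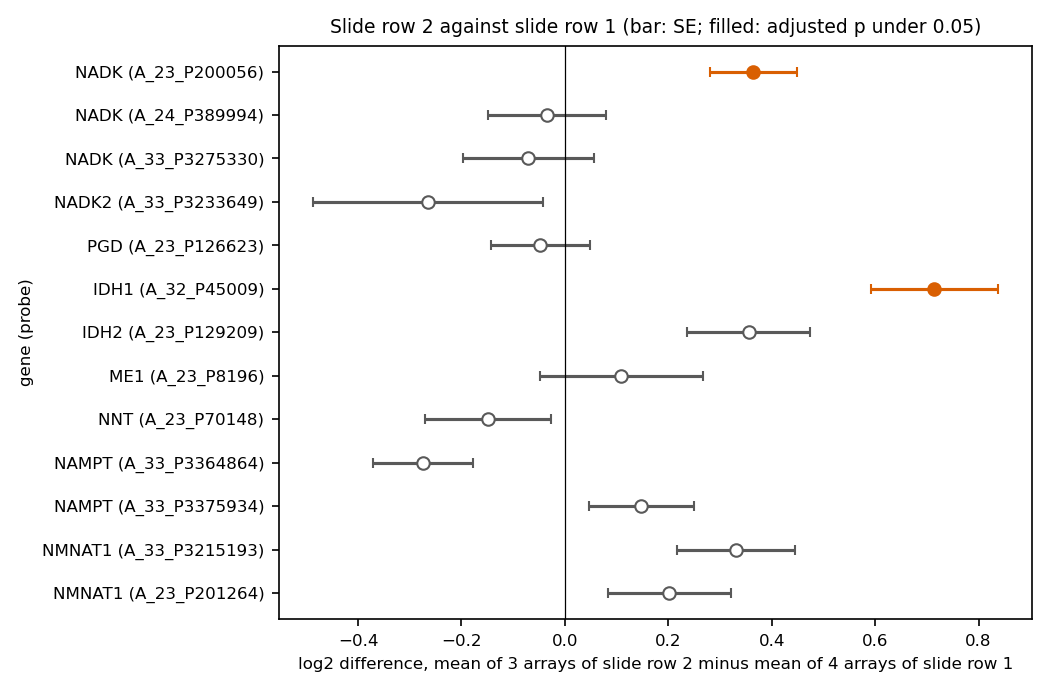
Log2 difference between the mean of slide row 2 (CNOT6L, CNOT7 and NOC arrays) and that of row 1 (x axis) for all 13 probes (y axis), with the SE of the fit as bars; filled points had an adjusted p under 0.05. IDH1, at 0.71, and 1 of the 3 NADK probes, at 0.36, are filled.

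The promoters of the genes called between the rows are shown for IDH1 and NADK, each by 1 of the starts that RefSeq lists. The windows hold 250 bases before and 50 after the start, in assembly GRCh38.p14, on the minus strand and written 5′ to 3′. Capitals mark matches on either strand to the antioxidant response element TGACNNNGC, the letters bound by NRF2, to the CCAAT box CCAAT and to the E-box CACGTG. GC boxes (GGGCGG) were counted but not capitalised, and 1 of them overlaps the antioxidant response element of IDH1.
IDH1, chr2:208255022-208255321: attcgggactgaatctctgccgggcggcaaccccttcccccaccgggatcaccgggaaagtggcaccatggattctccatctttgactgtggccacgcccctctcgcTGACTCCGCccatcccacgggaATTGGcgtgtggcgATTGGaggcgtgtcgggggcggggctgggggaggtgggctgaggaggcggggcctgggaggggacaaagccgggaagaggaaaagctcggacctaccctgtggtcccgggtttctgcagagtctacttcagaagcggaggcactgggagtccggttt
NADK, chr1:1778767-1779066: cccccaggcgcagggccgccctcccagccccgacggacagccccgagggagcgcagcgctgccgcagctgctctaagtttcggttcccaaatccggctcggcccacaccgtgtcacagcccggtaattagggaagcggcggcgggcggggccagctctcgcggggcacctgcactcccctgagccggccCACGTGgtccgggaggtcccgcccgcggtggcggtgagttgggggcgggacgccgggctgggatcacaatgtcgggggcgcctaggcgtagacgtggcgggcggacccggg
In the IDH1 window the antioxidant response element begins 143 bases before the start, and both CCAAT boxes, in reverse, lie between it and the start. The E-box of NADK begins 61 bases before its start. The other IDH1 window held no antioxidant response element and no CCAAT box, and the other NADK windows held no E-box. The windows shown are thus those that carry these motifs. The table lists 15 windows for the 9 genes, and 4 of them hold the antioxidant response element, in IDH1, ME1, NAMPT and PGD, 26.7% where 13.3% of 35116 promoters do. The E-box was in 3 windows, of NADK, NADK2 and NNT (20.0%, against 7.26% of all promoters), the CCAAT box in 6 (40.0%, against 34.6%) and the GC box in 12 (80.0%, against 45.0%). Whether the matches bear on the levels of these genes was not tested. A match is a stretch of letters, and binding was not measured.

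Among 57 other genes of NAD and NADP metabolism 56 could be named and 52 were tested, and few passed. By the 2-fold rule only HAAO was called, lower on the CNOT6L, CNOT7 and NOC arrays, and 1 of 56 genes per array is near the shares over all genes (0.887%, 0.976% and 1.34%). HAAO, a dioxygenase of NAD synthesis from tryptophan, was at -2.20, -1.60, -1.94, -1.79, -3.65, -3.63 and -3.60, so the 3 arrays of row 2 were alike and far below the others. Against the nearer control, the empty-vector array, it stood at -1.45, -1.43 and -1.40 log2 on these 3 arrays, and against both row mates it was not called on any of them. Its other probe, A_33_P3244122, above background on 6 of the 7 arrays, was at -6.05, -6.40 and -6.77 on these arrays against -5.80 and -7.34 on the controls, so they overlapped. Between the controls, 3 of the 56 genes were lower on the non-target array and none higher by the same 2-fold rule (11.7% and 0.577% of all genes).

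Between the slide rows limma called 1 of the 52 listed genes higher and 2 lower, near the shares over all probes (2.4% and 4.43%). The genes were taken up after their values were seen: ME2, a mitochondrial malic enzyme, was 0.52 log2 higher in row 2 (SE 0.12, adjusted p = 0.0365), HAAO was lower by -1.75 (SE 0.15, adjusted p = 0.000952) and SARM1, an enzyme that cleaves NAD, by -0.92 (SE 0.22, adjusted p = 0.0428). The other SARM1 probe stood at -0.26 (SE 0.16, adjusted p = 0.341 in limma). Of 13 other genes that the list groups under NADPH production 1 was called, ME2, and which coenzyme its product used in these cells was not measured. Of 4 in the non-oxidative pentose phosphate branch none was called, and of 3 subunits of the NAD-dependent isocitrate dehydrogenase none. Of 11 in NAD synthesis and transport 1 was called, of 14 that use NAD or nicotinamide 1, of 2 phosphatases of NADP(H) none and of 5 users of NADPH or NADH none. The median difference between the rows was 0.11 log2 over the 9 genes and 0.10 over the 51 listed genes above background on all arrays, where that of all such genes was -0.03. For the 5 shRNA arrays against the controls limma called none of the 52 genes, and 1, SIRT5, had an unadjusted p under 0.05 (0.0361).

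**Figure D4:**
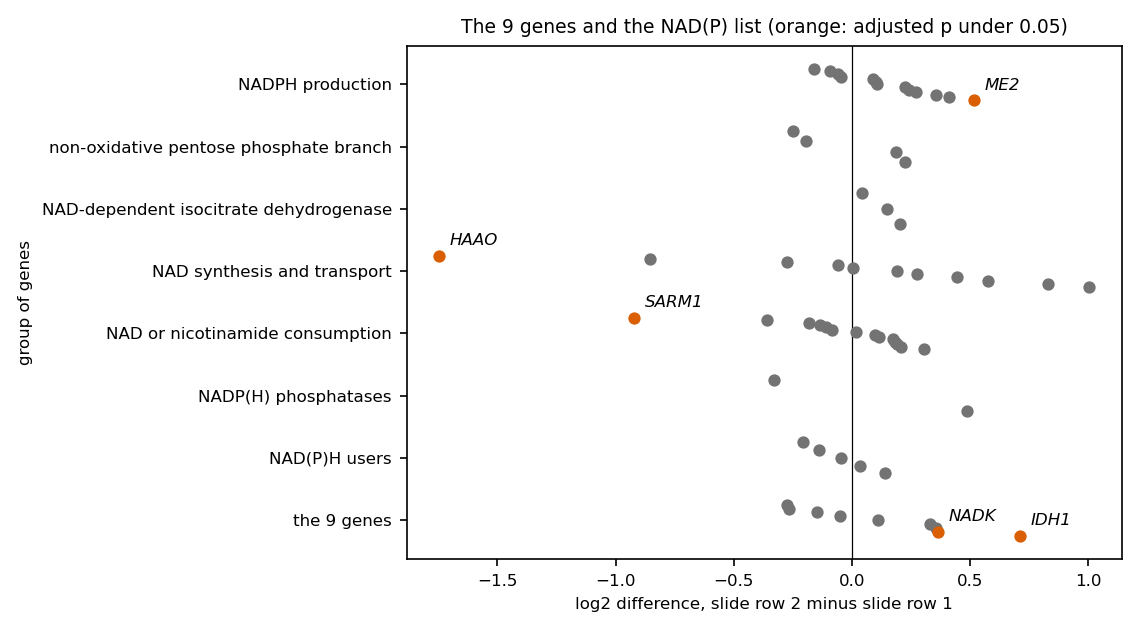
Log2 difference between slide row 2 and slide row 1 (x axis) for the 9 genes and the tested genes of the NAD(P) list by group (y axis), 1 point per gene, orange where the adjusted p was under 0.05. HAAO lies farthest from 0, at -1.75, and ME2 is the list gene called higher, at 0.52.

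NADK2 had the widest range, so the genes whose levels followed it were listed. Over the 7 arrays CWC25, a splicing factor, MTG2, a GTPase of mitochondrial ribosome assembly, and TMEM39B had the highest Pearson correlations with NADK2, 0.978, 0.977 and 0.977. All are highest on the PARN array, followed by the empty-vector array. They are the top 3 of 16455 genes, 78 of which had a correlation above 0.9, and the points share 1 slide, 1 scaling and the same 7 RNAs.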

How the data were processed

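Expression was measured on 7 single-colour Agilent arrays of NCI-H520 cells, 1 per group, with groups taken from the sample titles. The authors scanned the slide and extracted it with Agilent Feature Extraction (version 10.7.3.1 per the file headers), which gave each spot an intensity: processed, median and local background. In a second deposited table the values are log2, and for 100% of 33744 probes they differed between arrays as the scanner values did, within 0.02 log2 after 1 shift per array. Its centre per probe was removed, so it carries no level.

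Here the log2 of the processed signal was reduced by the 75th percentile of the gene spots of each array. The percentile left out control spots but kept gene spots that the software marked as outliers. Those outliers were left out of the probe values, and a probe printed more than once was averaged over its remaining spots. A probe was above background where at least 50% of its spots were marked so. Symbols came from a RefSeq table (GRCh38.p14), used for names and promoter windows, while the array follows an older build. The representative probe of a gene has the highest mean signal. A call needed a 2-fold difference, in 1 direction, from both reference arrays, with the brighter side above background and a dim side set at its bound. Probes above background on at least 2 arrays were fitted with limma 3.58.1 in R 4.3.3 (two-sided, Benjamini-Hochberg, threshold 0.05), after it was tested on simulated data. The comparison of slide rows was chosen after seeing the data. The members and lists were chosen with earlier results of these data known. By rule the text names all 9 genes, NOCT, listed genes called 2-fold and the 3 genes most like the member of widest range, and ME2, SARM1 and SIRT5 were added after their values were seen.

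The alternatives were quantile normalization, no scaling, normexp with an offset of 50 on the median signal, the series table, outlier spots kept, the mean over probes, other folds, slide row as a term, and leaving out each array. No depth applies to arrays, and their number limits the precision.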

Additional observations from a re-analysis of the deposited data

How the results depend on the processing

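With 1 array per group the limits are those of the slide: no level has a replicate, the row and the CNOT6L, CNOT7 and NOC shRNAs cannot be told apart, and 7 of the 13 member probes have 2 spots to average while the others rest on 1. No paired analysis was possible because each group has 1 array and all arrays carry replicate number 1.

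The count of members called 2-fold against both controls was 0 for PARN and NOC in every alternative run, and so was that of limma for the 5 shRNA arrays against the controls. Without scaling the count was 3 for CNOT6, 1 for CNOT6L and 1 for CNOT7. No share over all genes was computed for that setting, so these counts are no result about the members. The unscaled 75th percentile was 1366 on the CNOT6 array, against 3251 on the empty-vector and 2315 on the non-target array. No scaling also moved the median of all genes between the rows by 0.720 log2. Between the controls the count of members was 1 at 1.5-fold (22.9% of all genes) and 1 without scaling. Of the 45 differences from the control mean, 17 changed sign without scaling, 3 under quantile normalization, 1 under normexp, 1 in the series table, 2 with the mean over probes, 7 when the empty-vector array was left out and 5 when the non-target one was.

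Of the 56 listed genes, the calls against both controls at 1.5-fold were 2 for PARN, 1 for CNOT6, 2 for CNOT7 and 2 for NOC. Over all genes the shares were 1.74%, 3.34%, 4.4% and 5.07%. At 4-fold, and with the mean over probes, they were 0 for CNOT6L, CNOT7 and NOC, and with that mean 1 for PARN. Without scaling they were 2 for PARN, 10 for CNOT6 and 3 for CNOT7. Leaving out each control in turn gave 2 to 2 for PARN, 1 to 2 for CNOT6 and 2 to 4 for each of CNOT6L, CNOT7 and NOC. The rule is looser with a control left out, and the controls themselves differed 2-fold in 12.3% of all genes. Shares over all genes were not computed for the settings other than 1.5-fold, so those counts are no result about the listed genes.

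Between the slide rows limma called 4 members without scaling, where 5175 of 38091 probes were called higher and 61 lower. It called 0 members in the series table, where 0 probes were called and no level was left for the variance trend of the fit. Against the controls alone it called 0 members, with 27 probes higher and 99 lower. Leaving out each array gave 0 to 4: 0 without CNOT6L or CNOT7, 1 without the empty-vector, PARN or NOC array and 4 without the non-target array. The probes called over the whole array also varied, from 37 higher and 239 lower without CNOT6L to 2189 and 5619 without the non-target array. IDH1 was positive throughout and lost its call in 4 of 13 alternatives, NADK in 8 of 13. The series table is among these for both genes, though its lost calls are no check for the reason given. Without scaling NADK2 (0.46), PGD (0.67), NNT (0.57) and NAMPT (0.45) turned positive. PGD was 0.0053 in the series table and 0.017 against the controls alone. ME1 was -0.0056 against the controls alone and -0.0072 to 0.28 when each array was left out. The cause was not tested.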
